A study of Mus musculus with 4 samples.

Results

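Cd55 and 3 other genes of the complement system, C3, Serping1 and Cd59a, were followed in mouse mammary gland cells sorted 3 days after transplantation and profiled on microarrays. Members were taken as probe sets, groups of probes for the same transcript, that the platform annotation gave exactly 1 of these symbols. This named 3 probe sets of Cd55, 1 of Serping1 and 2 of Cd59a, so 3 of the 4 members were measured, among 17097 genes in all. C3, the central protein of the cascade, was given 0 probe sets and was not analysed here. The gene group was selected on the difference of Cd55 between these same arrays, with other results of them known, so the members' values are a description and carry no test.

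Cells of 1 group came from transplants of 10000 BC cells alone, which the labels name the multipotent condition. The control group came from transplants of 8000 LC cells together with 2000 BC cells, named the unipotent condition. Each group had 2 arrays, with RNA of 50 sorted cells behind each. The labels leave BC and LC as abbreviations, which mammary gland studies commonly use for basal and luminal cells. The sources used here give no strain, age, animal or sorting gate. A group thus differs from the other by its LC cells and also by its BC cell number, and the share of each cannot be told apart. The arrays are not stated to come from separate animals, so any spread between them may be technical, and precision is limited by there being 2 of each.

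Complement is a cascade of plasma proteins that marks surfaces for uptake and can pierce membranes. The classical arm starts when C1q, bound to a surface, activates the proteases C1r and C1s, which cut C4 and C2. The lectin and alternative arms meet it at the cutting of C3, after which the terminal components build a pore. Host cells carry inhibitors on their surface, and other inhibitors circulate. Cd55, decay-accelerating factor, is a lipid-anchored surface protein that takes apart the enzymes that cut C3. Cd59a is a lipid-anchored surface protein that blocks the last step of the pore. Serping1, the C1 inhibitor, is a secreted serpin that inactivates C1r and C1s.

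Mice have a close copy of Cd55, called Cd55b, which is known mainly from testis. The windows around the start sites of both genes are shown because the copies look alike there while the probe sets of Cd55b lay below the array medians. Both sequences are from RefSeq on GRCm38.p6, from 250 bases before to 50 bases after the start, 5′ to 3′ on the minus strand, with the 2 matches to the GC box GGGCGG (either strand) in capitals, here as its complement CCGCCC. The Cd55 window is chr1:130462695-130462994 and the Cd55b window is chr1:130422994-130423293, with the start sites 39701 bases apart.
Cd55: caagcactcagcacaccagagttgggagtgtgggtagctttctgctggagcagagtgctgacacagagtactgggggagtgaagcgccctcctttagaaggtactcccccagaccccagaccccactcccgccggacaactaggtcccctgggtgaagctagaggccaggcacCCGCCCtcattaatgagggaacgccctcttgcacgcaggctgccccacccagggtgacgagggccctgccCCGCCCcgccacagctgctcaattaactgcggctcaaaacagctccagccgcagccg
Cd55b: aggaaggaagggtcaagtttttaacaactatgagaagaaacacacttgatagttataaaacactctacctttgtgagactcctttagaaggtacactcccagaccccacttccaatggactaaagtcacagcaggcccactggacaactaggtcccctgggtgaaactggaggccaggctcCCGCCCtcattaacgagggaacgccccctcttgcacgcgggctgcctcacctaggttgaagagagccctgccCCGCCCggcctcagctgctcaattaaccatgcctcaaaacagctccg
In a global alignment 213 of 277 aligned base pairs were identical, or 76.9%, a share that leaves out 46 gap bases. The GC boxes of Cd55 begin 77 and 7 bases before the start site. Of all 32851 windows of this length in the table, 35.7% held a GC box. On either strand the Cd55 window held 0 matches to the CCAAT box, present in 37.4% of windows under the letters of its name, where the Cd55b window held 1. The TATA box, searched as TATAAA, was present in 13.6% of windows, with 0 matches in the Cd55 window and 1 in the Cd55b window. The AP-1 site, searched as TGANTCA, was present in 7.81% of windows and in neither of these. A match describes the letters only.

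Control replicate 2 stood apart from the other arrays. Its values had an SD of 1.44 over all probe sets, against 1.90 to 1.92 on the others, and it correlated with them at a Pearson r of 0.915 to 0.919, against 0.968 to 0.972 among those 3, taken over probe sets, themselves no independent replicates. The basal keratin genes Krt5 and Krt14 and the smooth muscle actin gene Acta2 had log2 values of 7.12, 6.78 and 6.84 there, against 9.80 or more on each other array. The keratin genes of luminal cells, Krt8 and Krt18, had 8.0 and 7.78 there, against 9.32 or more. Basal and luminal keratins thus lay well above the array medians on every array.

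Cd55 had the clearest separation between the groups among the 3 measured members. All values below are log2 expression, so a step of 1 is a 2-fold step. The brightest Cd55 probe set had 7.86 and 8.26 on the BC alone arrays, against 5.10 and 5.10 on the control arrays. Both BC alone values lay far above both controls, and the control arrays did not differ at the precision of the file. The group means were 8.06 ± 0.28 in BC alone and 5.10 in both controls (SD, n = 2), a log2 difference of 2.96 ± 0.32 (SE of the fit) or 7.78-fold. By size of difference Cd55 stood in place 4 of 17097 genes counted from the highest. In bulk samples such as these, fewer cells of a type and less RNA per cell cannot be told apart.

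The other Cd55 probe sets pointed the same way with smaller differences. The second probe set had 7.43 and 7.25 in BC alone, against 5.57 and 5.59 on the control arrays, a difference of 1.76 or 3.39-fold. Here too the groups lay apart, with 0.18 or less between arrays of a group. The third, dimmest probe set had 3.94 and 5.30 in BC alone, against 3.64 and 3.77 on the control arrays, a difference of 0.92. Its groups did not overlap, but BC alone replicate 1 lay only 0.17 above the nearer control, and the values of that array and of both controls were below the array medians of 4.37 to 4.62. The average over the 3 probe sets differed by 1.88.

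The control level of Cd55 did not rest on control replicate 2. Its brightest probe set differed by 2.96 against either control array alone. Cd55 moved by 0.00 between the control arrays, where the 2874 genes within 0.5 of its level on control replicate 1 had a median step of 0.17. After another quantile normalization, median centring or cyclic loess, the difference was 2.71, 3.09 or 2.62. Under all 3 scalings both BC alone arrays stayed above both controls, and the nearest pair of values was 7.73 on BC alone replicate 1 and 5.63 on control replicate 2, after cyclic loess.

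**Figure D1:**
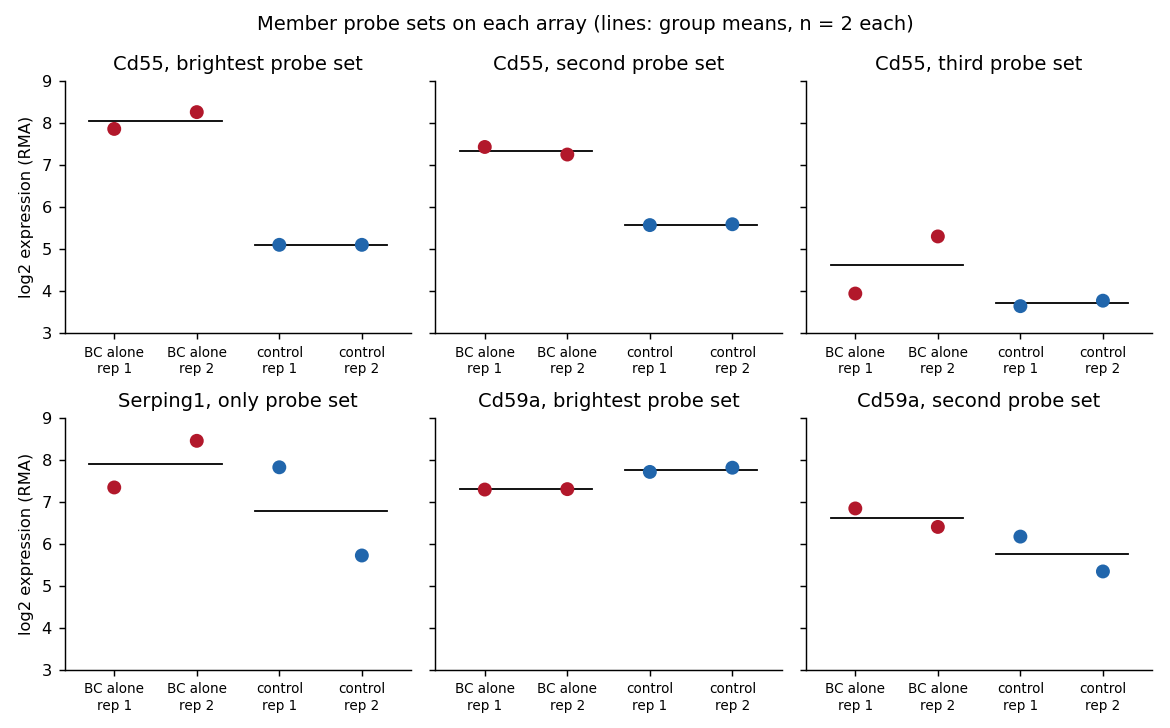
Log2 expression (RMA values, y axis) of each probe set of Cd55, Serping1 and Cd59a on the 4 arrays (x axis), red for BC alone and blue for the control, with black lines at the group means (n = 2 each). Cd55 lay higher on both BC alone arrays for its brightest probe set (7.86 and 8.26, against 5.10 on both controls), while Serping1 overlapped and the Cd59a probe sets pointed in opposite directions.

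Serping1, the secreted C1 inhibitor, overlapped between the groups. It had 7.34 and 8.45 on the BC alone arrays, against 7.82 and 5.72 on the control arrays. The highest value was on BC alone replicate 2 and the lowest on control replicate 2, and control replicate 1 lay between the BC alone arrays. The means were 7.90 ± 0.78 for BC alone and 6.77 ± 1.48 for the control (SD, n = 2), a log2 difference of 1.125 ± 0.77 (SE). Without control replicate 2 that difference was 0.075, and without control replicate 1 it was 2.175. Control replicate 2 minus control replicate 1 was -2.10 for Serping1, and had a median of -1.11 over the 1478 genes within 0.5 of its control replicate 1 level.

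The 2 probe sets of Cd59a, the surface inhibitor of pore formation, disagreed. The brighter one had 7.29 and 7.30 in BC alone, against 7.71 and 7.81 on the control arrays, so both BC alone arrays lay below both controls. Its means were 7.295 ± 0.0071 for BC alone and 7.76 ± 0.071 for the control (SD, n = 2), a log2 difference of -0.465 ± 0.29 (SE). The dimmer one had 6.84 and 6.40 in BC alone, against 6.17 and 5.34 on the control arrays, so both BC alone arrays lay above both controls, by 0.865 on average. Averaged over both probe sets, Cd59a differed by 0.20. Which probe set follows the transcript better cannot be read from these values, so no direction is given for the gene.

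The brighter Cd59a probe set also went against the general shift of control replicate 2. It was 0.10 higher there than on control replicate 1, where the 1532 genes near its level had a median step of -1.05. Its difference was accordingly larger after scalings that stretch that array, at -1.02 after cyclic loess and -1.08 after another quantile normalization. The dimmer probe set kept its sign under the same scalings, at 0.64 and 0.74. Without control replicate 2 the brighter and dimmer probe sets differed by -0.415 and 0.45.

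**Figure D2:**
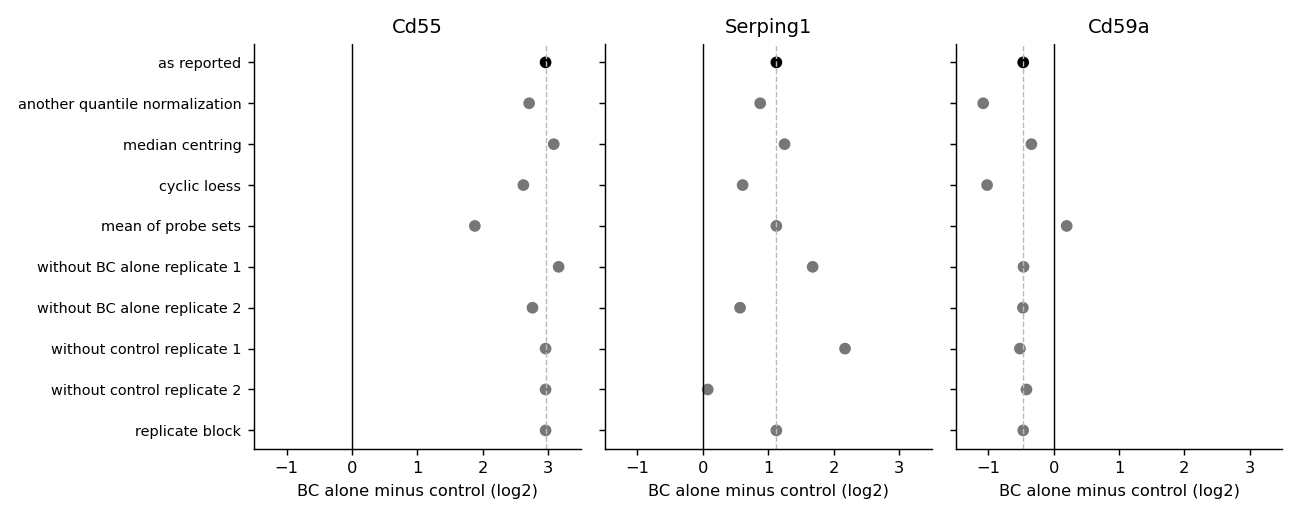
BC alone minus control in log2 expression (x axes) for the main probe set of Cd55, Serping1 and Cd59a, as reported (black) and under each alternative (grey, one per line), with a dashed line at the reported value. Cd55 stayed between 1.88 and 3.16, Serping1 ranged from 0.075 without control replicate 2 to 2.175 without control replicate 1, and Cd59a turned to 0.20 with the mean of its probe sets.

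Beside these members stands the rest of the pathway, taken as a list of 51 complement genes of which 43 were measured, 3 of them members. None of the 40 that are not members passed an adjusted p of 0.05 in limma. Its calls over all 17097 genes were 0, or 0% of genes, and 680 genes or 3.98% had an unadjusted p under 0.05. Of the 40 genes that are not members, 2 had an unadjusted p under 0.05, both higher in BC alone. With 2 arrays a group, the smallest p of an exact permutation test is 0.333. Of the 40, 14 had a higher mean in BC alone and 25 a lower one, against 46.7% and 52.9% of all genes. Their median log2 difference was -0.11, against -0.04 over all genes, and 0.015 against 0.085 after median centring. Without control replicate 2 the median was 0.02, against 0.005 over all genes, and 22 of the 40 were higher, and without BC alone replicate 2 it was -0.27, against -0.06. Many complement genes were dim, since 20 of the 40 lay above the array median on at least 3 arrays. Of those 20, 12 had a higher mean and 8 a lower one, against 6678 and 3254 of the 9964 genes as bright.

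Groups lay apart for 7 of the 40 with BC alone higher and for 6 with BC alone lower, against 16.8% and 19.6% of all genes. At least 2-fold and apart, 3 of the 40 were higher and 0 lower, against 4.79% and 0.895% of all genes. These 3 were C1ra, C1s1 and C2, which encode proteases of the classical arm, and 3 genes are too few to set against that share. Of the 20 that lay above the array median on at least 3 arrays, 2 were higher in this way, against 768 of the 9964 genes as bright. Under another quantile normalization 54.4% of all genes that differed at least 2-fold without overlap were higher in BC alone, against 84.3% as deposited, 92.0% after median centring, 56.5% after cyclic loess and 51.2% without control replicate 2.

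The C1r and C1s genes encode the proteases that Serping1 inhibits. C1s1 had 6.29 and 7.69 in BC alone, against 5.30 and 5.10 on the control arrays, a log2 difference of 1.79. C1ra had 4.86 and 6.03 in BC alone, against 3.80 and 3.88 on the control arrays, a difference of 1.605. Both genes were higher on both BC alone arrays, most on replicate 2, and both control values of C1ra lay below the array medians. C1rb, a close copy of C1ra, had 6.99 and 7.95 against 6.81 and 6.21 on the control arrays, a difference of 0.96. Probe sets of C1ra, C1rb and C1s1 can bind transcripts of their close paralogs, so their values are uncertain as to the gene. Each of these 3 genes had the same sign under all 3 scalings. Their groups lay apart, so leaving out 1 array could not change the sign, only the size. Over the scalings and with 1 array left out, C1s1 lay between 1.09 and 2.49 and C1ra between 1.02 and 2.19. C1rb lay between 0.48, without BC alone replicate 2, and 1.44.

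C2 and C4b encode the proteins that C1s cuts. C2 had 5.18 and 6.31 in BC alone, against 4.46 and 4.95 on the control arrays, a difference of 1.04, which was 0.475 without BC alone replicate 2. C4b had 9.07 and 9.70 in BC alone, against 9.30 and 7.07 on the control arrays. Its groups overlapped, and its difference of 1.20 was 0.085 without control replicate 2. C4a and C1s2 had no probe set with 1 symbol in the annotation used here and were not analysed.

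The C1q chains, known mainly as products of macrophages, followed neither group. C1qa had 4.57 and 7.07 in BC alone, against 6.34 and 5.08 on the control arrays. C1qb had 4.63 and 7.26 in BC alone, against 6.76 and 4.91 on the control arrays. C1qc had 4.66 and 7.05 in BC alone, against 7.05 and 5.51 on the control arrays. All 3 were high on BC alone replicate 2 and control replicate 1 and low on the other arrays, and each changed sign with at least 1 array left out. BC alone replicate 2 exceeded replicate 1 by at least 1 for 6 of the 8 classical genes, against 2.83% of all genes.

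Macrophage markers shared that pattern in part. The summed log2 value of 10 macrophage markers was 45.6 and 51.3 in BC alone, against 55.8 and 51.8 on the control arrays. Within each group the sum was thus higher on the array where C1q was higher. Cd68, a lysosomal protein of macrophages, had 6.91 and 7.31 in BC alone, against 7.34 and 6.11 on the control arrays. Cd14, a receptor for bacterial lipopolysaccharide, had 6.35 and 6.66 in BC alone, against 8.56 and 6.40 on the control arrays. Both were highest on BC alone replicate 2 and control replicate 1, as the C1q chains were. Other markers of the list were not. Lyz2 had 6.12 and 6.93 in BC alone, against 7.46 and 7.70 on the control arrays. Aif1 had 4.27 and 4.48 in BC alone, against 4.61 and 5.05 on the control arrays. Lyz2 and Aif1 were highest on control replicate 2 and lower on both BC alone arrays. Mrc1, the mannose receptor, had 3.57 and 4.80 in BC alone, against 5.89 and 4.99 on the control arrays, so it moved like C1q within each group but was lower on both BC alone arrays. Csf1r, a receptor that marks macrophages, had 5.12 and 4.86 in BC alone, against 5.35 and 5.31 on the control arrays. Adgre1, another macrophage marker, had 3.10 and 4.61 in BC alone, against 4.03 and 4.83 on the control arrays. Ptprc, the marker of all blood leukocytes, had 2.91 and 3.27 in BC alone, against 4.21 and 3.26 on the control arrays, each below the array median. Of the 10 markers 0 were higher on both BC alone arrays and 5 were lower on both, against 16.8% and 19.6% of all genes. The part of macrophages in the C1q values was not tested.

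**Figure D3:**
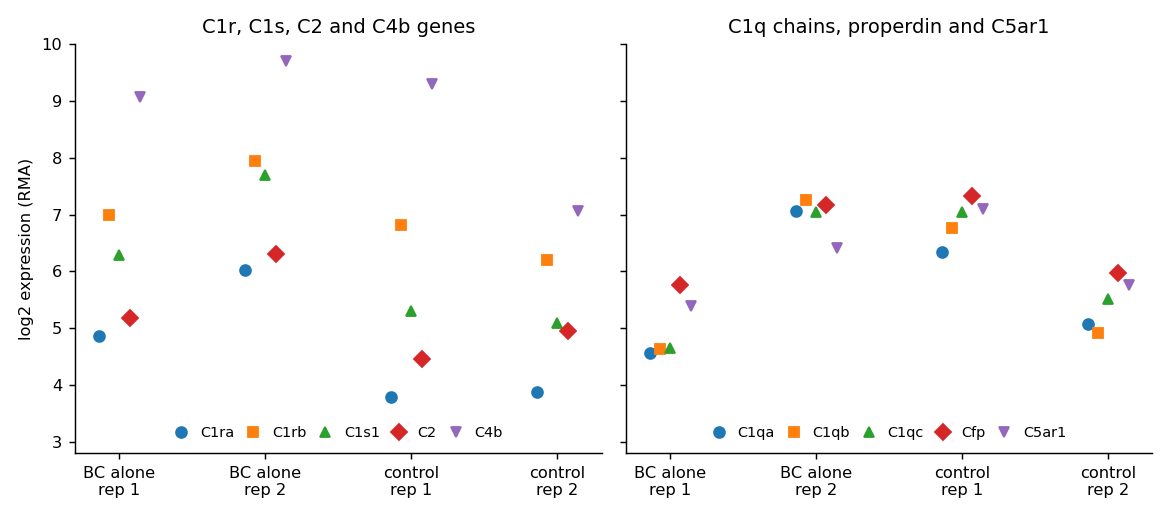
Log2 expression (RMA values, y axes) by array (x axes) of C1ra, C1rb, C1s1, C2 and C4b (left) and of C1qa, C1qb, C1qc, Cfp and C5ar1 (right), 1 point a gene on each array. C1ra and C1s1 were higher on both BC alone arrays, whereas the genes on the right were highest on BC alone replicate 2 and control replicate 1.

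In the alternative arm 2 genes were measured. Cfb, factor B, which forms a C3-cutting enzyme, had 6.41 and 7.18 in BC alone, against 6.14 and 6.06 on the control arrays. Both BC alone arrays lay above both controls, by 0.695 on average and by 0.31 without BC alone replicate 2. Cfp, properdin, which stabilises that enzyme, had 5.76 and 7.16 in BC alone, against 7.33 and 5.98 on the control arrays, so the groups overlapped. Cfp was named after its values were seen. Cfd, factor D, was not analysed here.

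Lectin arm and terminal genes were mostly dim. Of 8 lectin arm genes 2 had a higher mean in BC alone and 5 a lower one, with a median difference of -0.13. Under each of the 3 scalings and without control replicate 2, 4 of the 8 were higher, with medians of -0.04 after another quantile normalization, -0.0025 after median centring, -0.014 after cyclic loess and -0.015 without that array. Masp1, a protease of that arm, had 6.13 and 5.55 in BC alone, against 5.62 and 4.75 on the control arrays on its brightest probe set, and 3 of its 4 dimmer probe sets pointed the other way (it was named after its values were seen). All 6 measured terminal genes had a lower mean in BC alone, but only 1 of them lay above the array median on at least 3 arrays, the median difference of -0.33 was -0.04 without control replicate 2, and C8g turned positive under all 3 scalings. Hc, which encodes C5, had 3.66 and 3.78 in BC alone, against 4.05 and 4.09 on the control arrays, all below the array medians.

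Among soluble inhibitors other than Serping1, Clu and Vtn had the higher means in BC alone. Clu, clusterin, had 9.80 and 8.69 in BC alone, against 9.0 and 8.51 on the control arrays, with overlap, and its difference of 0.49 turned to -0.26 after cyclic loess and to -0.23 after another quantile normalization. Vtn, vitronectin, which also binds cells and matrix, had 5.34 and 4.97 in BC alone, against 4.14 and 4.65 on the control arrays. Its groups lay apart, its dimmer probe set differed by 0.81 beside 0.76 for the main one, and it was named after its values were seen.

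The other membrane inhibitors did not share the pattern of Cd55. Cr1l, the rodent inhibitor Crry, which like Cd55 acts on the C3-cutting enzymes, had 8.46 and 8.25 in BC alone, against 8.40 and 7.71 on the control arrays. Its groups overlapped, and its difference of 0.30 was -0.045 without control replicate 2 and -0.37 after another quantile normalization. Cd55b had 2.87 and 3.43 in BC alone, against 2.97 and 3.41 on the control arrays on its brighter probe set, all below the array medians. Cd46, which in mice is known mainly from sperm, had 3.49 and 3.19 in BC alone, against 3.71 and 3.43 on the control arrays, also below the medians. Of the 5 measured membrane inhibitors other than Cd55 and Cd59a, 0 had groups that lay apart, against 16.8% of all genes apart with BC alone higher and 19.6% with BC alone lower, and 5 genes are too few to set against those shares. Cd59b was not analysed here.

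Receptors for complement fragments had lower means in BC alone for 6 of 7 genes, against 52.9% of all genes. Their median difference was -0.18, with a limma call for 0 of them. The median was -0.04, -0.055 and -0.09 after another quantile normalization, median centring and cyclic loess, with 2, 2 and 3 of the 7 higher, and -0.34 without control replicate 2, with 3 higher. Groups lay apart for 2 of the 7 receptor genes, both lower in BC alone, against 19.6% of all genes. With 7 genes, these counts are too few to set against those shares. Itgb2, the shared chain of complement receptors 3 and 4, had 5.69 and 6.03 in BC alone, against 6.35 and 6.53 on the control arrays. Itgam, its partner in complement receptor 3, had 3.73 and 3.39 in BC alone, against 4.11 and 3.95 on the control arrays, all below the array medians. C5ar1, the receptor for the C5a fragment, had 5.39 and 6.41 in BC alone, against 7.09 and 5.77 on the control arrays, with overlap. C3ar1, the receptor for C3a, had 5.64 and 5.56 in BC alone, against 5.94 and 5.31 on the control arrays, also with overlap. Both are known from myeloid cells, whose markers are given above. Of 7 measured neutrophil markers, 0 lay above the array median on at least 3 arrays. S100a8 had 4.01 and 3.84 in BC alone, against 6.81 and 4.20 on the control arrays. S100a9 had 4.03 and 4.05 in BC alone, against 5.88 and 4.60 on the control arrays. Both lay above the array median on control replicate 1 only. These 2 markers were at least 2-fold lower in BC alone without overlap, against 0.895% of all genes, and 7 genes are too few to set against that share. Csf3r differed by -0.64, and Cxcr2, Ngp, Camp and Mmp8 by -0.10, -0.19, -0.01 and -0.04. Under each of the 3 scalings 3 of the 7 neutrophil markers were higher in BC alone.

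**Figure D4:**
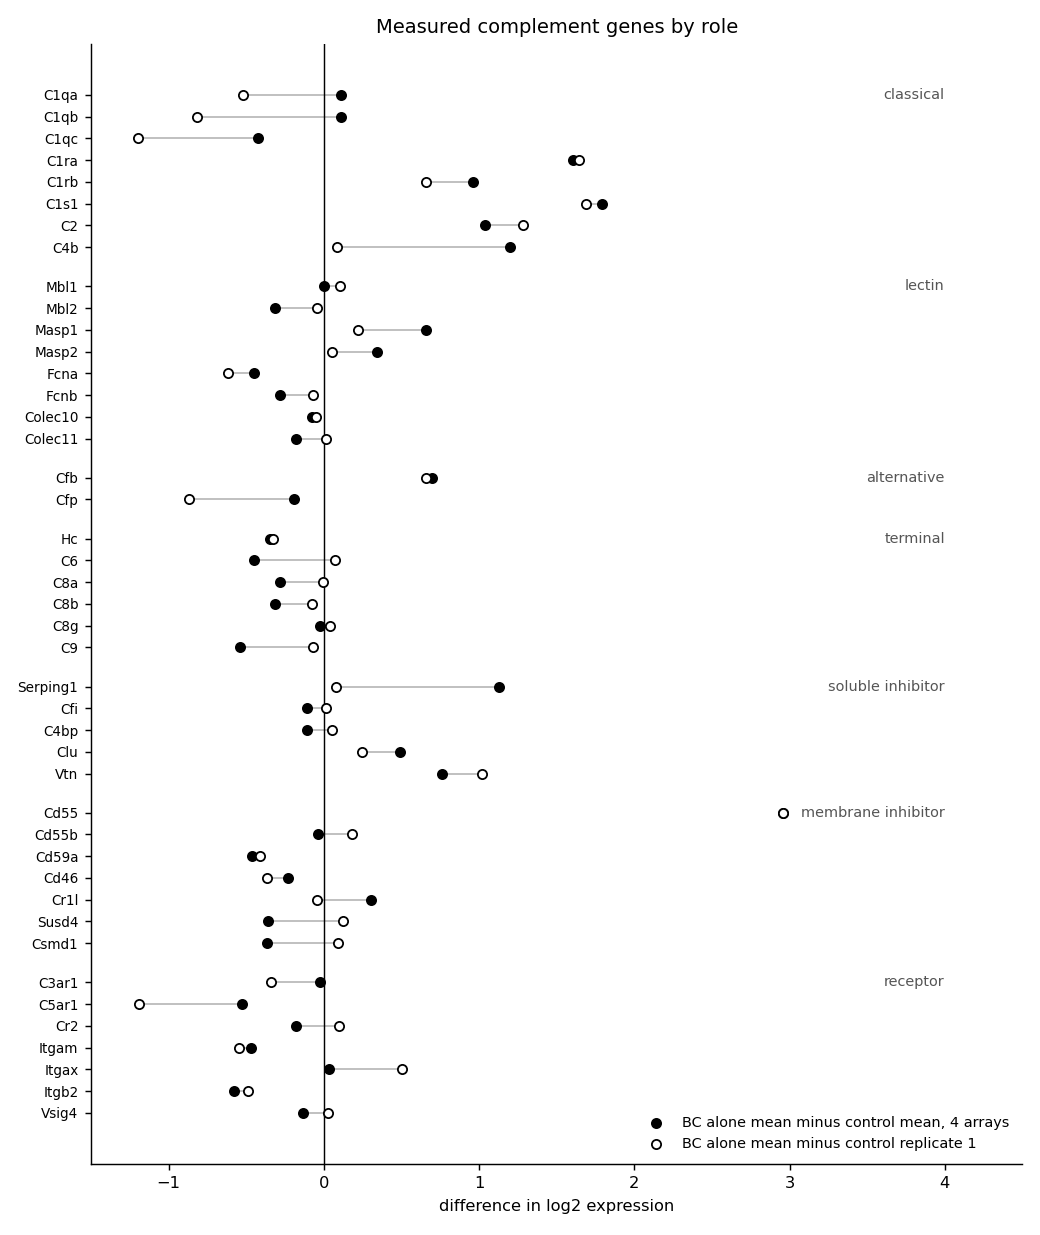
Difference in log2 expression (x axis) for the 43 measured complement genes by role, as BC alone mean minus control mean over 4 arrays (filled) and as BC alone mean minus control replicate 1 (open). Cd55 lies at 2.96 for both and its filled point is hidden, whereas Serping1 and C4b lie near 0 (0.075 and 0.085) against control replicate 1.

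The genes whose profile over the 4 arrays was most like that of Cd55 were Efemp1, Scara5, Cd34, Ddr2 and Ltbp4. Likeness was the Euclidean distance between profiles after each gene's mean was taken off, and ran from 0.38 for Efemp1 to 0.74 for Ltbp4. Efemp1, a matrix glycoprotein, had 5.32 and 6.13 in BC alone, against 3.05 and 2.94 on the control arrays. Cd34, known from the surface of endothelial cells and stromal progenitors, had 6.72 and 7.44 in BC alone, against 4.68 and 4.19 on the control arrays. Ddr2, which binds fibrillar collagen, had 8.20 and 8.57 in BC alone, against 5.81 and 6.10 on the control arrays. All 5 were higher on both BC alone arrays, as the choice by likeness fixes.

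**Figure D5:**
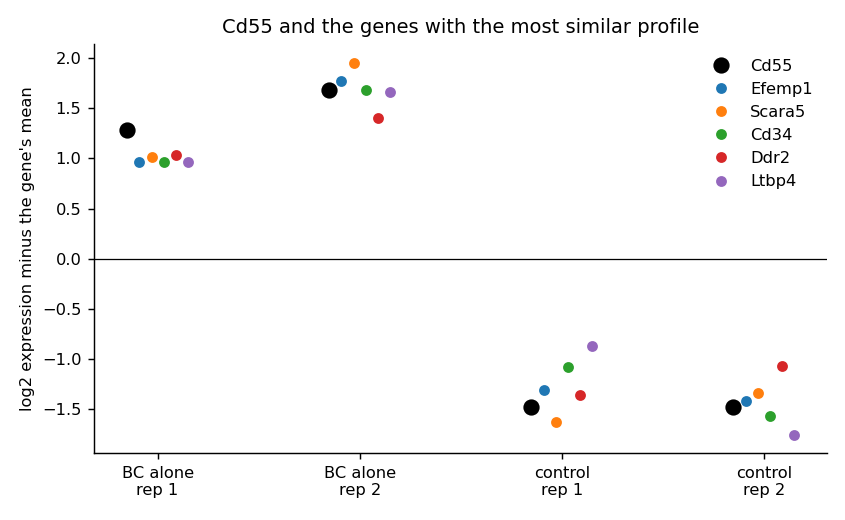
Log2 expression minus each gene's own mean over the 4 arrays (y axis) by array (x axis) for Cd55 (large black points) and the 5 genes with the smallest distance to it. All 6 genes lie above 0 on both BC alone arrays and below 0 on both control arrays.

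Serping1 was most like Pcolce, which encodes an enhancer of procollagen processing, at a distance of 0.048, then Ccn1 and Mgp at 0.20 and 0.25. Pcolce had 6.47 and 7.62 in BC alone, against 6.98 and 4.83 on the control arrays, the same order of arrays as Serping1. The genes most like the brighter Cd59a probe set were Ighv6-6, Ccdc158 and Lrrc52, at distances of 0.032 to 0.036, and their values of 2.52 to 3.63 all lay below the array medians.

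Of 10 fibroblast markers 8 had a higher mean in BC alone, the direction of Cd55, and 2, Pdgfrb and Col1a2, a lower one. Pdgfrb had 6.74 and 6.62 in BC alone, against 6.20 and 7.37 on the control arrays. The summed log2 value of the 10 was 76.2 and 77.6 in BC alone, against 67.8 and 60.3 on the control arrays. Both BC alone arrays were higher for 7 of the 10, against 16.8% of all genes. Among the 9964 genes above the array median on at least 3 arrays, 2540 were. The median difference of the 10 markers, 1.67, was 0.69 without control replicate 2. Dcn, a proteoglycan of fibroblasts, had 10.84 and 11.16 in BC alone, against 9.91 and 8.02 on the control arrays. Col1a1, for type I collagen, had 10.84 and 10.91 in BC alone, against 10.30 and 8.62 on the control arrays. Pdgfra, a defining receptor of fibroblasts, had 4.06 and 3.57 in BC alone, against 3.58 and 3.68 on the control arrays, below the array median on every array. Thy1, a surface glycoprotein of fibroblasts and other cells, had 8.65 and 8.39 in BC alone, against 6.57 and 5.92 on the control arrays. Fap, a surface protease of activated fibroblasts, had 5.42 and 6.83 in BC alone, against 3.83 and 3.91 on the control arrays. Fap was thus low and nearly level on both control arrays, but its values there lay below the array medians, where those of Cd55 lay above them. Of the 10 markers 5, Dcn and Col1a1 among them, were at least 1 lower on control replicate 2 than on control replicate 1. Over all genes that share was 18.3%, but most of those were dimmer than Dcn and Col1a1. The 1478 genes within 0.5 of 7.82 on control replicate 1 had a median step of -1.11 to control replicate 2. The count of 5 is thus not read as particular to fibroblast markers.

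Markers of other cells were also set beside Cd55. The summed value of 8 endothelial markers was 48.95 and 48.3 in BC alone, against 42.9 and 44.3 on the control arrays, and 3 of the 8, Tek, Cdh5 and Emcn, were at least 2-fold higher with both BC alone arrays above both controls, against 4.79% of all genes. Tek, an angiopoietin receptor, had 5.77 and 5.46 in BC alone, against 3.67 and 3.92 on the control arrays, and Cdh5 and Emcn differed by 1.35 and 1.315. Pecam1, an endothelial adhesion protein, overlapped, with 7.63 and 6.82 in BC alone, against 7.17 and 7.14 on the control arrays. Kdr, Tie1, Esam and Vwf overlapped too. Vwf had a lower mean in BC alone, with 5.28 and 5.15, against 4.56 and 6.91 on the control arrays. The summed value of 8 basal markers was 73.4 and 70.7 in BC alone, against 74.3 and 47.5 on the control arrays. The summed value of 8 luminal markers was 63.5 and 65.8 in BC alone, against 65.9 and 56.8 on the control arrays. Basal and luminal sums of control replicate 1 were as high as in BC alone. Sums of log2 values do not measure the share of a cell type. The markers Cd68, Cd14, Mrc1, Lyz2, Aif1, S100a9, Thy1, Fap, Tek, Cdh5 and Emcn were named after their values were seen. Pdgfrb, Col1a2, Kdr, Tie1, Esam, Vwf, Csf3r, Cxcr2, Ngp, Camp and Mmp8 were also named after their values were seen. So were the receptor genes Itgb2 and Itgam. The part of any of these cell types in the Cd55 values was not tested.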

How the data were processed

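The authors deposited a log2 value for each probe set and array. The submitters' processing notes name RMA and affy, without versions, and RMA is background correction, quantile normalization and a summary over probes. The array columns were not identical in distribution, so whether all were normalised together cannot be read from them. No detection calls came with the values.

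The platform annotation gave 28898 of 45141 probe sets 1 symbol, 551 several and 15692 none, and 0 symbols needed an update. Each of 17097 genes was represented by its brightest probe set by mean over the 4 arrays, without a filter. BC alone was compared with the control in limma 3.58.1 under R 4.3.3 (lmFit, eBayes, two-sided, Benjamini-Hochberg over all genes, threshold 0.05), with 2 residual degrees of freedom. On data simulated for this comparison with 17097 genes, 0%, 66%, 100% and 100% of genes changed by 1, 2, 3 and 4 log2 were called. The noise simulated was normal and independent, without an array-wide shift such as that of control replicate 2. The shares called may thus not hold for the arrays themselves, and 0 calls there do not mean that no gene changed.

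Members and lists were chosen with earlier results of these data known. Named genes are the members, complement genes at least 2-fold different without overlap, a fixed set of complement and marker genes, and the 5 or 3 genes most like a member. Alternatives were 3 scalings, the mean of probe sets, each array left out, a replicate block, a brightness filter, 2 other variance models and all probe sets tested.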

Additional observations from a re-analysis of the deposited data

How the results depend on the processing

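Cd55 was higher in BC alone under all 9 alternatives run for it. Its groups lay apart, so leaving out 1 array could not change that direction, and the replicate block leaves every difference unchanged by design. Its log2 difference of 2.96 was 2.71 after another quantile normalization, 2.62 after cyclic loess and 1.88 with the mean of its probe sets, and 2.76 to 3.16 with 1 array left out. Serping1 stayed positive under 9 alternatives, at 0.075 to 2.175 with 1 array left out. With 1 probe set, the mean of probe sets could not move Serping1 either. Cd59a, at -0.465, was -1.08 after another quantile normalization, -0.34 after median centring, -1.02 after cyclic loess and -0.515 to -0.415 with 1 array left out, and turned to 0.20 with the mean of its 2 probe sets, which disagree. C3 gave no value, so its alternatives were not run. Of 43 complement genes, 16 had a higher mean in BC alone, and 16 to 24 did with 1 array left out. Limma called 0 genes in 11 of 13 alternatives, 97 with an intensity trend, C1ra among them (adjusted p = 0.023 in limma, against 0.842 as reported), and 108 with the replicate block. Nothing in the labels says that the replicate numbers pair the arrays. Deviations of same-numbered arrays from their group means correlated at -0.018 over genes. With 2 arrays a group, that value cannot settle whether the arrays were paired. The block left 1 residual degree of freedom. Of the complement genes that are not members, the block called 0. Over all genes the median difference was 0.085 after median centring, 0.125 above the -0.04 as deposited. Without detection calls, dim values have no stated limit.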
